A study of Mus musculus with 4 samples.

Results

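The transcripts described here are 10 markers of spermatogonial stem and progenitor cells, the mitotic germ cells from which spermatocytes arise: Gfra1, Uchl1, Zbtb16, Sall4, Id4, Sohlh1, Sohlh2, Dmrt1, Lin28a and Nanos3. They were taken by name from the deposited gene tables after matching Ensembl identifiers to GENCODE M21 symbols on GRCm38, and all 10 were found among 55364 genes. The libraries came from mouse pachytene spermatocytes, germ cells whose homologous chromosomes are fully paired in meiosis, enriched from testis by a collagenase step against Leydig cells, trypsin and centrifugal elution. Of the 4 libraries, 2 were labelled WT and 2 were labelled as homozygous for a DDX4 knock-in (KK). Ddx4 encodes the germline RNA helicase of germ granules. The labels give no age, strain or sequence of the inserted allele, and nothing in them says that same-genotype libraries are from different mice, so p-values here reflect sample-to-sample spread that may be technical. By its title the series is about a knock-in mouse and what germ granules do for RNA in the germline.

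Spermatogonial stem cells sit on the basement membrane of the seminiferous tubule and respond to GDNF, a factor from somatic cells, through the receptor pair GFRA1 and RET. As their progeny become progenitors and then differentiating spermatogonia, they lose GFRA1 and ID4, pass through a stage marked by LIN28A and SOHLH1, and gain the receptor KIT under retinoic acid. Entry into meiosis follows, with STRA8 as its retinoic acid target, so that most of these markers are low or absent in pachytene spermatocytes. In RNA from a mixed sample, more cells of a type and more RNA per cell cannot be told apart.

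The libraries held 17970207 to 19438570 expected counts each. Ddx4 itself, the targeted gene, stood at 265 and 273 TPM (a level corrected for transcript length and library size) in WT and at 54.4 and 52.5 TPM in KK. The 16 pachytene markers summed to 17641 and 17803 TPM in WT and to 16725 and 16881 TPM in KK. For 16 round spermatid markers the TPM sums were higher, at 20517 and 20649 TPM in WT and 18279 and 18731 TPM in KK. In CPM (counts scaled to a common library size) the order was reversed. The pachytene markers summed to 15698.5 and 15663.4 CPM in WT and to 14344.4 and 14195.5 CPM in KK. The round spermatid markers summed to 5018 and 5070 CPM in WT and to 4463 and 4410 CPM in KK. Which list stood higher thus depended on the measure. Against the TPM sums of both lists the 10 spermatogonial markers stood at 58.7 and 105.7 TPM in WT and at 70.6 and 75.7 TPM in KK. Most of this came from Id4 and Uchl1. The 105.7 TPM of WT replicate 2 included 46.73 TPM of a short Uchl1 isoform (described with Uchl1). The other 8 markers were minor transcripts. They summed to 7.33 and 5.49 TPM in WT and to 14.2 and 16.6 TPM in KK. Several defining stem cell genes outside the 10 were near 0, with 1 count of Nanos2 in all 4 libraries together, 5 counts of Neurog3, both libraries of WT being at 0, and 0 counts of T. Not all genes of undifferentiated spermatogonia were so low, as 24 of 37 listed ones outside the 10 had enough counts to be tested. These 37 summed to 89.7 and 89.1 TPM in WT and to 94.5 and 97.3 TPM in KK. Epcam (19.7 to 26.1 TPM) and Tex14 (23.9 to 27.2 TPM) were the highest of them. The same libraries thus carried abundant pachytene and round spermatid transcripts and traces of several genes that define spermatogonial stem cells. Other genes of undifferentiated spermatogonia stood at higher levels.

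In CPM (counts scaled to a common library size with edgeR's TMM factors), 8 of the 9 markers that could be tested had both KK libraries above both WT libraries, a pattern held by 36.0% of all 16571 genes tested, and 1, Id4, had both below. At an adjusted p of 0.05 in edgeR's quasi-likelihood test, 6 of the 9 were called higher in KK, where 22.0% of all genes tested were, and 1 was called lower, where 21.7% of all genes tested were. Gfra1 and Sall4 did not pass and Nanos3 was too low to be tested. Among autosomal genes with a mean CPM between 0.861 and 13.6, the span of the 8 tested markers other than Id4 and a range chosen after the values were seen, 22.4% were called higher and 9.21% lower, and 40.1% had both KK libraries above both WT libraries. Zbtb16 and Lin28a reached the filter on low counts (0.535 CPM in at least 2 libraries) through the KK libraries alone, which favours a rise: of the 601 genes that entered in this way, 62.9% were called higher. With every gene of at least 1 count kept in the test, so that all 10 were tested, 6 were called higher, against 13.4% of 26828 genes, and 1 lower, against 13.8%. The 9 tested markers had 1.06 as their median log2 fold change, beside 0.003 over all genes tested.

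**Figure D1:**
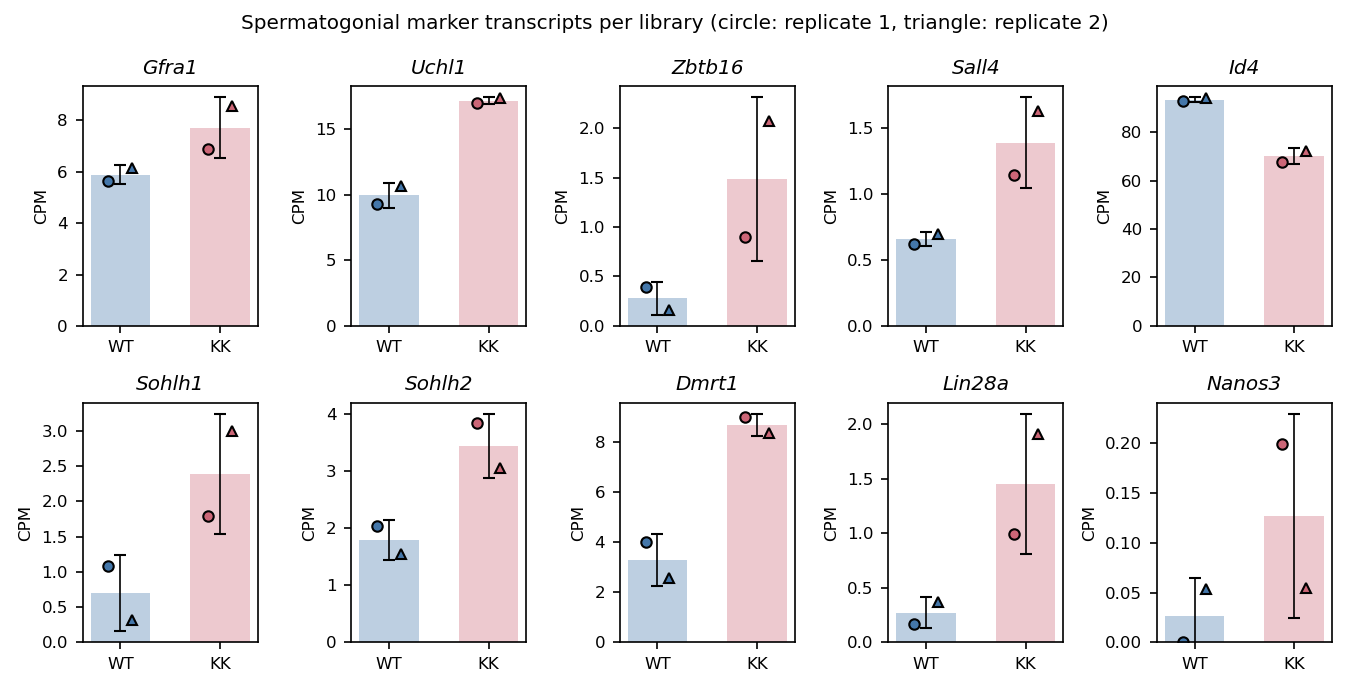
Normalised counts (CPM, linear axes from 0) of the 10 markers in each library, with circles for replicate 1, triangles for replicate 2, bars for the genotype mean and whiskers for its SD (n = 2, drawn from 0 where they would reach below it). Id4 is the marker with both KK points below both WT points, and the Nanos3 points stand for 0 to 4 counts.

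Levels per transcript length ran from 0 to 66.22 TPM. In WT the order by mean TPM was Uchl1, Id4, Dmrt1, Gfra1, Sohlh2, Sohlh1, Sall4, Lin28a, Nanos3 and Zbtb16. The first place of Uchl1 in WT rests on 46.73 TPM of a short isoform in 1 library (described with Uchl1): without that isoform Uchl1 stood at 17.9 and 19.5 TPM, below both WT values of Id4, while in KK it was above both. As deposited, the WT ranges of Uchl1 and Id4, of Dmrt1 and Gfra1, of Sohlh2 and Sohlh1, and of the last 3 overlapped, so those neighbours had no order beyond their spread. In KK the order was Uchl1, Id4, Dmrt1, Sohlh1, Gfra1, Sohlh2, Lin28a, Sall4, Zbtb16 and Nanos3, with overlaps from Sohlh1 to Sohlh2 and from Lin28a to Nanos3. Sohlh1 moved from below Gfra1 in both WT libraries (1.42 and 0.42 TPM against 1.75 and 1.92 TPM) to a range in KK of 2.35 to 3.93 TPM that overlapped the 2.13 to 2.66 TPM of Gfra1.

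Gfra1 (chromosome 19, 58235604 to 58455909, minus strand) encodes the co-receptor that binds GDNF and presents it to RET. It had 99 and 115.37 expected counts in WT and 137.64 and 157.31 in KK, or 1.75 and 1.92 TPM against 2.13 and 2.66 TPM. Both KK libraries lay above both WT libraries, by a smaller margin than for the other risers in counts. The normalised count was 5.89 ± 0.377 CPM in the WT pair and 7.71 ± 1.18 CPM in the KK pair (SD, n = 2), a log2 fold change of 0.38 ± 0.17 (SE) that missed the threshold (edgeR adjusted p of 0.067). It passed when KK replicate 1 was left out (adjusted p of 0.034) and with library size scaling (0.027). All Gfra1 counts were assigned to 1 of the 9 annotated isoforms, Gfra1-203, which has 9 exons and begins at position 58454592, inside the span of the gene.

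The partner genes of Gfra1 were low as well, while a paralogue was not. Ret, the signalling receptor, had 6 and 6 counts in WT and 13 and 16 in KK, 0.10 TPM in each WT library against 0.19 and 0.24 TPM. Its log2 fold change of 1.18 ± 0.57 did not pass (edgeR adjusted p of 0.098). The ligand gene Gdnf had 7 and 5 counts in WT and 4 and 8 in KK, with overlapping groups, and was not tested. The paralogue Gfra4 was the most abundant of the family, at 67.3 and 84.4 TPM in WT and 96.3 and 97.7 TPM in KK. It rose by 0.34 ± 0.08 on the log2 scale (edgeR adjusted p of 8.9e-04). It missed the threshold in 3 of 13 alternatives, the fit without WT replicate 1 among them. Gfra2 stood at 10.5 and 13.0 TPM in WT and 12.5 and 11.2 TPM in KK and did not pass (adjusted p of 0.21 by edgeR).

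Other genes of GDNF signalling, from ligand and receptors to downstream genes, were called higher about as often as genes at large. Of the 17 genes of the GDNF list that are not among the 10 markers, 13 could be tested, and 3 of them (Gfra4, Lhx1 and Mycn) were higher, beside 22.0% of all genes tested. In edgeR 0 were lower (also 0 at an unadjusted p under 0.05 and in DESeq2), and their median log2 fold change was 0.22. The count of 3 went to 1 with DESeq2, with an effective length offset and without WT replicate 2, and to 0 in limma on TPM. Lhx1 had 20 and 2 counts in WT and 34 and 36 in KK, so its WT libraries differed 10-fold in counts, and its log2 fold change was 1.57 ± 0.53 (edgeR adjusted p of 0.017). It was 16.0-fold higher without WT replicate 1 and 1.60-fold higher without WT replicate 2, and it missed the threshold in 5 of 13 alternatives (adjusted p of up to 0.41). Mycn had 8 and 3 counts against 17 and 22, with a log2 fold change of 1.72 ± 0.58 and an edgeR adjusted p of 0.017. Like Zbtb16 and Lin28a, Mycn entered the test through the KK libraries alone. It was 2.21-fold higher without WT replicate 2 and 6.09-fold without WT replicate 1, and it missed the threshold in 6 of 12 alternatives (adjusted p of up to 0.25). Etv5 (2.52 ± 0.456 to 3.45 ± 0.437 CPM, adjusted p of 0.17 by edgeR) and Bcl6b (6.67 ± 0.279 to 6.80 ± 0.316 CPM, adjusted p of 0.92 by edgeR) did not pass, the groups of Bcl6b overlapping.

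Uchl1 (chromosome 5, 66676091 to 66687234, plus strand) encodes a ubiquitin carboxyl-terminal hydrolase that stains spermatogonia and neurons. It had 164 and 199 expected counts in WT and 341 and 319 in KK, and both KK libraries were well above both WT libraries. The normalised count rose from 9.98 ± 0.946 to 17.2 ± 0.268 CPM (mean ± SD, n = 2 each), a log2 fold change of 0.78 ± 0.11 with an edgeR adjusted p of 2.1e-06. The gene's TPM did not show the same pattern, at 17.89 and 66.22 in WT and 32.00 and 32.98 in KK. WT replicate 2 was the library with the highest TPM, although its count was below both KK counts.

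The isoform table held the origin of that discrepancy. In WT replicate 2, 1.98 expected counts were assigned to Uchl1-204, an annotated fragment of 228 bases, and after division by its short effective length they stood for 46.73 of the gene's 66.22 TPM. The other 3 libraries had 0 counts on it. Without Uchl1-204 the gene stood at 17.9 and 19.5 TPM in WT and at 32.0 and 33.0 TPM in KK, so the separation seen in counts was also present in TPM. On the gene's TPM as deposited, limma on log2(TPM + 1) gave a log2 fold change of -0.09 (adjusted p of 0.93), and edgeR with an effective length offset gave -0.24 (adjusted p of 0.75).

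**Figure D2:**
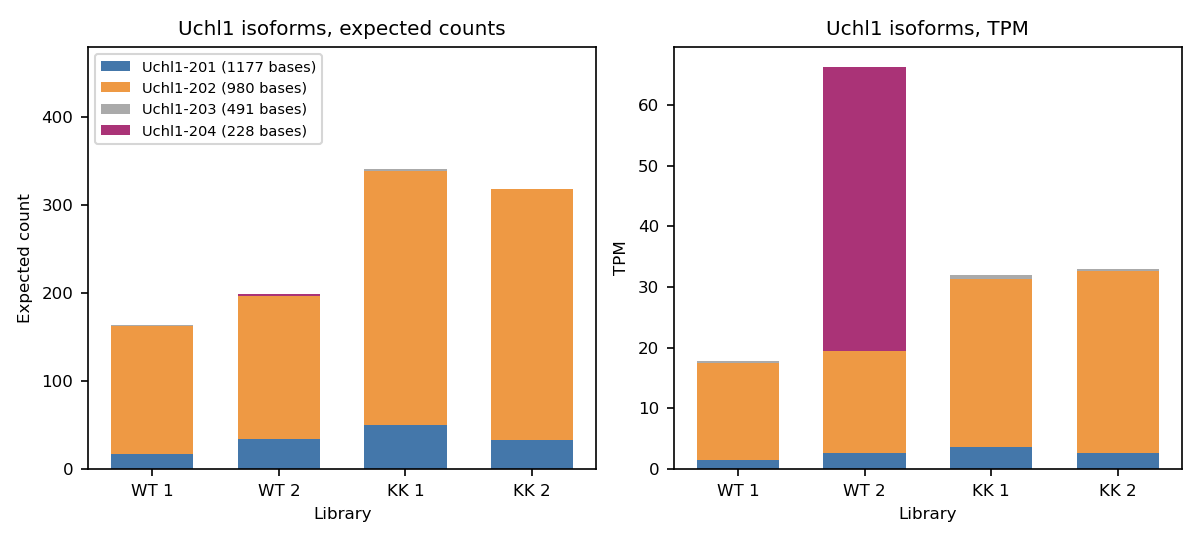
Uchl1 in each library split by annotated isoform, with counts on the left and TPM on the right, both axes from 0. The counts are higher in both KK libraries, whereas 1.98 counts on the short Uchl1-204 make up most of the TPM bar of WT replicate 2.

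Most Uchl1 counts were not assigned to the full-length coding isoform. Uchl1-201, with 9 exons and the whole coding sequence, took 16.86 and 34.12 counts in WT and 50.47 and 33.12 in KK, which overlapped between the genotypes. Uchl1-202, annotated as a retained-intron transcript, took 146.14 and 162.90 counts in WT and 288.53 and 284.88 in KK, without overlap, or 81.9% to 89.3% of the gene's counts in every library. Uchl1-202 begins 801 bases downstream of Uchl1-201, at position 66676892 on chromosome 5, with 52 bases of its own before the third exon of Uchl1-201 (66676944 to 66677072), and from there follows Uchl1-201 into its last exon. These 52 bases (66676892 to 66676943) are intronic for Uchl1-201. The next lines show, from the GENCODE M21 transcripts on GRCm38, where Uchl1-201 and Uchl1-202 part, since the assignment of reads to either turns on it. Each has 30 bases in capitals that the other of this pair lacks, then the first 30 bases of the shared exon in lower case:
Uchl1-201: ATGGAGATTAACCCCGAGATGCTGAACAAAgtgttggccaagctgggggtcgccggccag
Uchl1-202: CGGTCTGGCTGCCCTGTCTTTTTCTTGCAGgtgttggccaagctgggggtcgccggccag
The capitals of Uchl1-201 come from its first and second exons, and those of Uchl1-202 from the intronic stretch just before the third exon. The short Uchl1-203, with exons at 66676242 to 66676322 and 66676436 to 66676845, holds the capitals of Uchl1-201 too. It took 0 to 2 counts in each library. The isoform counts are estimates from the authors' quantification, and no isoform was tested. Uchl1-201 held 10.3% and 17.1% of the gene's counts in WT and 14.8% and 10.4% in KK, so the shares overlapped. The paralogue Uchl3 stood at 277 to 287 TPM in all 4 libraries and did not pass (edgeR adjusted p of 0.56). Uchl5, a deubiquitinase of the proteasome, fell from 56.1 ± 0.438 to 43.2 ± 4.06 CPM (edgeR adjusted p of 2.8e-04).

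Zbtb16 (chromosome 9, 48654297 to 48836222, minus strand) encodes PLZF, a zinc finger transcription factor needed for stem cell maintenance. It had 7 and 3 counts in WT and 18 and 38 in KK, or 0.11 and 0.04 TPM against 0.24 and 0.71 TPM. The groups did not overlap, and KK replicate 2 was the highest library. The log2 fold change was 2.38 ± 0.58 (edgeR adjusted p of 0.0012), and the ratio of summed counts was 5.28 with a 95% interval of 2.67 to 11.6 for counting error alone. Without KK replicate 2 it was 3.17-fold higher, and without WT replicate 1 it was 8.78-fold higher. It missed the threshold in 3 of 12 alternatives. Among these were the fit without KK replicate 2 and limma on log2(TPM + 1) (adjusted p of 0.14). In KK replicate 2, 9.26 of the counts were assigned to the shorter Zbtb16-202, which had 0 counts in the other libraries.

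Sall4 (chromosome 2, 168748332 to 168767943, minus strand) encodes a zinc finger protein that partners with PLZF in spermatogonia. Its counts were 11 and 13 in WT and 23 and 30 in KK, or 0.17 and 0.19 TPM against 0.37 and 0.62 TPM. The groups did not overlap, but at this depth the log2 fold change of 1.06 ± 0.45 missed the threshold (edgeR adjusted p of 0.059). It passed with library size scaling (adjusted p of 0.044) and when the test was limited to genes with a mean of at least 1 CPM (0.041). The ratio of summed counts was 2.08, with a 95% counting interval of 1.26 to 3.53. Of the paralogues, Sall1 had 5 and 11 counts against 19 and 18 and did not pass (edgeR adjusted p of 0.09), while Sall3, at 3.79 to 4.77 TPM, fell by 0.28 on the log2 scale (edgeR adjusted p of 0.035) but missed the threshold in 8 of 13 alternatives, among them library size scaling and all single-library omissions except that of KK replicate 1.

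Id4 (chromosome 13, 48261228 to 48266026, plus strand) encodes an inhibitor of helix-loop-helix transcription factors that marks the most stem-like spermatogonia, and it was the 1 marker that fell. It had 1633 and 1757 counts in WT and 1362 and 1330 in KK, or 33.5 and 34.0 TPM against 24.4 and 26.1 TPM. Its libraries agreed closely within each genotype and the groups were apart. The normalised count fell from 93.4 ± 0.927 to 70.1 ± 3.22 CPM, a log2 fold change of -0.41 ± 0.05 with an edgeR adjusted p of 3.4e-07, and it passed as lower in all 13 alternative settings tried. With more counts in each library than the other 9 markers together, Id4 was present at a level unlike that of Zbtb16, Lin28a or Ret in the same libraries. The related Id1, Id2 and Id3 had 0 to 16 counts in every library and were not tested.

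Sohlh1 (chromosome 2, 25842995 to 25847248, minus strand) and Sohlh2 (chromosome 3, 55182028 to 55209957, plus strand) encode a pair of basic helix-loop-helix factors that act together in spermatogonial differentiation. Sohlh1 had 19 and 6 counts in WT and 36 and 55 in KK, or 1.42 and 0.42 TPM against 2.35 and 3.93 TPM. Sohlh2 had 36 and 29 counts in WT and 77 and 56 in KK, or 1.27 and 0.97 TPM against 2.38 and 1.90 TPM. For both genes the 2 KK libraries were above the 2 WT libraries, and the highest KK library was replicate 2 for Sohlh1 and replicate 1 for Sohlh2. Sohlh1 rose from 0.700 ± 0.536 to 2.39 ± 0.849 CPM (mean ± SD, n = 2 each), with a log2 fold change of 1.77 ± 0.44 and an edgeR adjusted p of 0.0018. Its fold depended on the WT libraries, at 7.24-fold without WT replicate 1 and 2.19-fold without WT replicate 2, and it missed the threshold with an effective length offset (adjusted p of 0.055) and in limma on log2(TPM + 1) (0.063) and log2(TPM + 0.1) (0.079). Sohlh2 rose from 1.80 ± 0.348 to 3.44 ± 0.556 CPM, a log2 fold change of 0.94 ± 0.29 with an edgeR adjusted p of 0.0089. It missed the threshold in 6 of 13 alternatives, fits without WT replicate 2 or KK replicate 1 among them. Others were DESeq2 (adjusted p of 0.07), limma on log2(TPM + 1) (0.068) and the effective length offset (0.055). With single libraries left out Sohlh2 was 1.68-fold to 2.20-fold higher.

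Dmrt1 (chromosome 19, 25505618 to 25604329, plus strand) encodes a DM domain factor that holds spermatogonia in mitosis by restraining Stra8, and it is also made by Sertoli cells. It had 71 and 48 counts in WT and 181 and 154 in KK, or 2.54 and 1.62 TPM against 5.67 and 5.83 TPM. Both KK libraries were far above both WT libraries. Dmrt1 rose from 3.30 ± 1.03 to 8.70 ± 0.448 CPM, a log2 fold change of 1.40 ± 0.20 with an edgeR adjusted p of 1e-06, and it passed as higher in all 13 alternative settings, with 2.15-fold to 3.36-fold when single libraries were left out. In all libraries but KK replicate 2 its counts were assigned to Dmrt1-201 alone. Within the DM domain family the levels were dominated by Dmrtb1, a regulator of the switch from mitosis to meiosis, at 1577 and 1581 TPM in WT and 1431 and 1475 TPM in KK, which fell by 0.14 on the log2 scale (edgeR adjusted p of 0.001; 0.15 with library size scaling). Dmrtc2, which acts in pachytene, fell from 96.8 ± 4.09 to 68.6 ± 1.91 CPM (edgeR adjusted p of 1.5e-08), and Dmrta2 rose from 5.15 ± 1.31 to 14.7 ± 1.29 CPM (edgeR adjusted p of 3.8e-09).

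Lin28a (chromosome 4, 134003330 to 134018841, minus strand) encodes an RNA-binding protein of progenitors that blocks maturation of let-7 microRNAs. It had 3 and 7 counts in WT and 20 and 35 in KK, or 0.07 and 0.15 TPM against 0.40 and 0.76 TPM. The groups did not overlap. The log2 fold change was 2.36 ± 0.56 (edgeR adjusted p of 0.001), and the ratio of summed counts was 5.19 with a 95% counting interval of 2.62 to 11.4. Without KK replicate 2 it was 3.55-fold higher and missed the threshold (adjusted p of 0.077), without WT replicate 2 it was 8.14-fold higher, and limma on log2(TPM + 1) gave an adjusted p of 0.067. The paralogue Lin28b was more abundant per length in all 4 libraries, at 1.52 and 1.27 TPM in WT and 1.75 and 1.13 TPM in KK, and its groups overlapped (edgeR adjusted p of 0.87).

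Other genes of the let-7 pathway were called in both directions in edgeR, in numbers that depended on the setting. Trim71, a conserved let-7 target that encodes a ubiquitin ligase and RNA-binding protein of stem cells, had 21 and 16 counts in WT and 82 and 61 in KK, and rose by 1.85 ± 0.32 on the log2 scale (edgeR adjusted p of 2.5e-05). Dis3l2, the exonuclease that degrades uridylated pre-let-7, rose from 28.8 ± 2.30 to 39.7 ± 4.11 CPM (edgeR adjusted p of 1.7e-04). Tut4, the uridylyltransferase that LIN28A recruits, fell from 61.3 ± 1.21 to 44.7 ± 0.468 CPM (edgeR adjusted p of 6.8e-06), while Tut7, which overlaps with it in function, did not pass (adjusted p of 0.12 by edgeR). Igf2bp3, an RNA-binding protein gene and let-7 target, fell by 0.16 on the log2 scale in counts (edgeR adjusted p of 0.0073), but on TPM limma gave a difference of 0.24 (pseudocount of 1, adjusted p of 0.11) and the effective length offset one of 0.25 (0.054), neither past the threshold. Tut4 and Dis3l2 each missed the threshold in 2 of 13 alternatives, among them limma on log2(TPM + 1), with adjusted p of 0.084 and 0.056. Of 12 genes of this list other than Lin28a, 8 could be tested. In edgeR 2 were higher and 2 lower, near the 22.0% and 21.7% of all genes tested. With Lin28a included, limma on log2(TPM + 1) called 0 in either direction, and 1 was lower in DESeq2, with library size scaling, with the offset and without WT replicate 1. The 3 let-7 precursor genes in it were at 0 counts in every library.

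Nanos3 (chromosome 8, 84173731 to 84185217, minus strand) encodes an RNA-binding translational repressor of germ cells. It had 0 and 1 counts in WT and 4 and 1 in KK, or 0 and 0.18 TPM against 0.61 and 0.19 TPM. WT replicate 2 and KK replicate 2 shared a single count each, so no difference could be seen at this depth. With every gene of at least 1 count kept in the edgeR test its adjusted p was 0.59. The paralogue Nanos1 had 11 and 12 counts in WT and 36 and 27 in KK and rose by 1.36 ± 0.44 on the log2 scale (edgeR adjusted p of 0.013). Nanos1 missed the threshold in 6 of 13 alternatives, the fits without WT replicate 1, WT replicate 2 or KK replicate 1 among them. Zbtb7a, a relative of Zbtb16, fell by 0.44 on the log2 scale (edgeR adjusted p of 0.046, lost in 7 of 13 alternatives). Over all families, 18 of 26 paralogues of the markers could be tested. In edgeR 3 were higher and 6 lower, beside 22.0% and 21.7% of all genes tested. With library size scaling the paralogues had 4 higher and 3 lower.

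Promoter sequence was examined for the helix-loop-helix pair Sohlh1 and Sohlh2, for Lin28a, which marks the same progenitor stage, and for Id4, the marker that fell. RefSeq entries on GRCm38.p6 were held for 7 of the 10 markers, as windows from 250 bases before to 50 bases after the annotated start. The 250 bases before the start are printed 5′ to 3′ in gene orientation for these 4 markers, and capitals mark E-boxes (CANNTG), the motif that helix-loop-helix factors such as SOHLH1 and SOHLH2 bind and whose use ID proteins inhibit:
Sohlh1 (chr2:25847249-25847498, minus strand): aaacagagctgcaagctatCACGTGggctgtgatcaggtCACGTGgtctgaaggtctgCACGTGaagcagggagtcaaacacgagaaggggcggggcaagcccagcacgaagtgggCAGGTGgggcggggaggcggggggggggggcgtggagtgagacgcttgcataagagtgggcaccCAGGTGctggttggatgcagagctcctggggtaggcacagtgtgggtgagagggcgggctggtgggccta
Sohlh2 (chr3:55181794-55182043, plus strand): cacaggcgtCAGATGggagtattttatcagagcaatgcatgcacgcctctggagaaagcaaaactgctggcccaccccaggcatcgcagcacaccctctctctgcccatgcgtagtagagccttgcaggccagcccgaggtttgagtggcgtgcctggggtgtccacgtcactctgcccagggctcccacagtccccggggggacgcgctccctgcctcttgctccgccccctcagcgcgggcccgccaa
Lin28a (chr4:134018817-134019066, minus strand): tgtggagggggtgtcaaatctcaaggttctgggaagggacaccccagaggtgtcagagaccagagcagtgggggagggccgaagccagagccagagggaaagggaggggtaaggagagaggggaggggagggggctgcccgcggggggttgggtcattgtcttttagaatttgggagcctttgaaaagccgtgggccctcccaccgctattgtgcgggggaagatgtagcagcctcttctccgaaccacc
Id4 (chr13:48260866-48261115, plus strand): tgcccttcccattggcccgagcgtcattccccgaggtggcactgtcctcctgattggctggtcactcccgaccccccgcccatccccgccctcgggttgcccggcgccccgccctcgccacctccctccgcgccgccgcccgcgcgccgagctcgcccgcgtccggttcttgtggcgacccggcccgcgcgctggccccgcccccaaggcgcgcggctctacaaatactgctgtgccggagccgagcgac
The Sohlh1 window held 5 E-boxes, 3 of them of the form CACGTG, at 231, 211 and 192 bases before the start. An E-box of any form is common, as 72.3% of 32544 distinct promoter windows of the same 300 bases held at least 1, but CACGTG was present in 7.17% of them and occurred 3 or more times in 29 windows (0.0891%). Sohlh2 held 1 E-box, CAGATG, and Lin28a and Id4 held none. The Id4 window held 5 GC boxes (GGGCGG on either strand), a number reached by 2.73% of windows, and its 250 bases were 75.6% G or C, beside a median of 52.4% over all windows. The cyclic AMP response element TGACGTCA (1.8% of windows) and the MYB core AACNGNC (32.8%) were in none of the 7 windows, and its shorter form TGACGT (7.55%), which every full element also holds, was in that of Sohlh2 alone, 85 bases before its start. Uchl1, the other riser with a window, held no E-box and was 48.8% G or C before its start, so 2 of the 4 risers with a window held an E-box. The windows of Gfra1, which did not pass, and Nanos3, which was too low to be tested, held 3 and 2 E-boxes. A match of letters shows no binding.

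**Figure D3:**
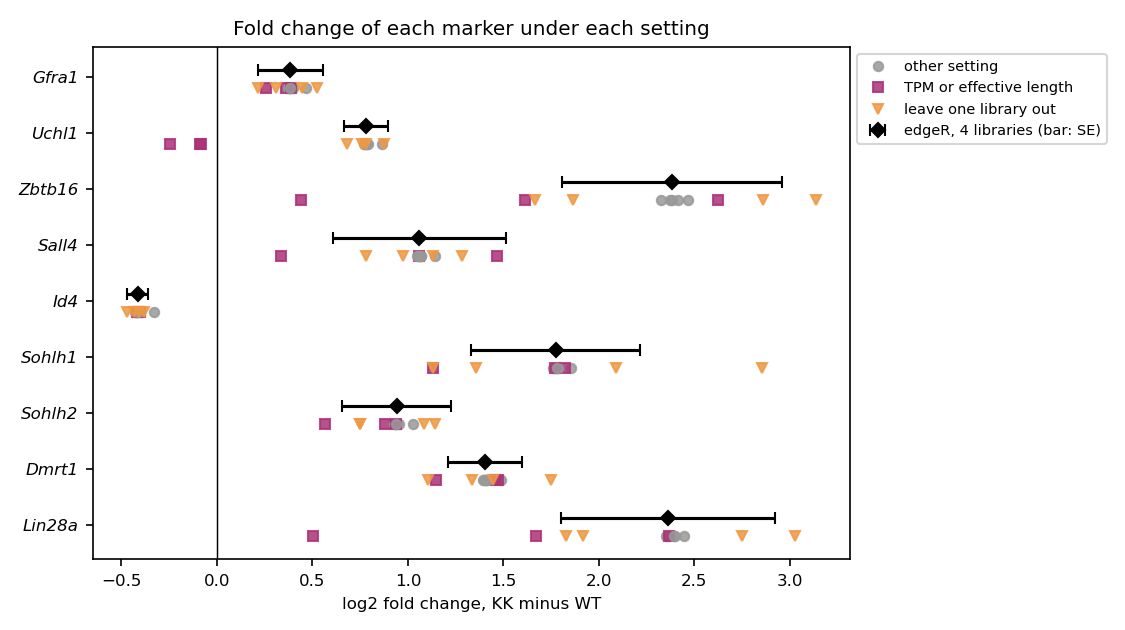
log2 fold change (KK minus WT) of the 9 tested markers, with black diamonds and SE bars for edgeR on all 4 libraries and coloured points below them for the alternatives. Id4 stays below 0 and Dmrt1 above 1 in each setting, Uchl1 turns only where TPM or effective length enters, and the points of Zbtb16, Lin28a and Sohlh1 spread widely when a library is left out.

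Other genes of undifferentiated spermatogonia were mostly not called. Of 37 listed genes 24 could be tested, 4 rose (Sox3, Lhx1, Pdgfra and Mcam) and 0 fell in edgeR (0 also at an unadjusted p under 0.05 and in DESeq2), beside 22.0% higher and 21.7% lower over all genes tested. Their median log2 fold change was 0.33. Sox3, an X-linked progenitor factor gene, had 14 and 14 counts in WT and 45 and 65 in KK and rose by 1.89 ± 0.37 on the log2 scale (edgeR adjusted p of 1.4e-04). Pdgfra (20 and 17 against 59 and 54 counts) is also a marker of peritubular and stromal cells, and Mcam (35 and 44 against 97 and 94 counts) also of vascular cells. In TPM the groups of Mcam overlapped, at 1.53 and 3.25 in WT and 2.60 and 2.47 in KK. Taf4b and Foxo1, 2 other regulators of stem cell maintenance, did not pass (adjusted p of 0.081 and 0.33 by edgeR).

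Of 17 genes of differentiating spermatogonia 16 could be tested, with 4 higher and 3 lower, near the 22.0% and 21.7% of all genes tested, and the median of the log2 differences was 0.22. Kit, the receptor of differentiating spermatogonia and a target of SOHLH1 and SOHLH2, had 96 and 101 counts in WT and 182 in each KK library, and rose from 5.43 ± 0.0322 to 9.48 ± 0.595 CPM (edgeR adjusted p of 1.4e-04). Stra8, the gene that DMRT1 restrains, had 35 and 51 counts in WT and 124 and 120 in KK, and rose by 1.42 ± 0.22 on the log2 scale (edgeR adjusted p of 5.7e-06). Kit and Stra8 thus rose in the same libraries in which Dmrt1, Sohlh1 and Sohlh2 rose. The other risers were the DNA methyltransferase gene Dnmt3a (2.33 ± 0.565 to 5.25 ± 0.660 CPM) and Tex101, a germ cell surface protein gene that is itself abundant in spermatocytes (181 ± 0.0225 to 1083 ± 2.17 CPM). Uhrf1, Top2a and Dmrtb1 fell, each by less than 0.30 on the log2 scale. They were far more abundant than Kit (1.55 and 2.12 TPM in WT). Their WT levels were 79.3 and 73.1 TPM for Uhrf1, 82.4 and 88.2 TPM for Top2a, and 1581 and 1577 TPM for Dmrtb1. The KIT ligand gene Kitl, which also stands in the list of Sertoli markers, had 43 and 27 counts in WT and 46 and 38 in KK. It did not pass (adjusted p of 0.70 by edgeR).

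Retinoic acid genes, which act at the exit from the progenitor state, included 6 higher and 1 lower of 14 tested, beside 22.0% and 21.7% of all genes tested, and the median log2 difference was 0.70. Of the 6, Stra8 and Rec8 also stand in the early meiotic list, and Stra8 in that of differentiating spermatogonia as well. Crabp1, a retinoic acid-binding protein gene, had 14 and 9 counts in WT and 53 and 58 in KK and rose by 2.18 ± 0.38 on the log2 scale (edgeR adjusted p of 3e-05). The receptor gene Rxra rose from 8.58 ± 0.732 to 17.4 ± 0.418 CPM and the retinoid-synthesis gene Rdh10 from 4.21 ± 1.27 to 8.31 ± 2.05 CPM. Aldh1a1, which encodes a retinaldehyde dehydrogenase also found in somatic cells of the testis, had 485 and 475 counts in WT and 963 and 845 in KK and rose by 0.83 ± 0.09 on the log2 scale (edgeR adjusted p of 5.4e-09). Aldh1a2, a retinaldehyde dehydrogenase gene of far higher level, fell from 153 and 147 TPM in WT to 130 and 131 TPM in KK (log2 fold change of -0.19 ± 0.04, edgeR adjusted p of 1.5e-04).

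By profile over the 4 libraries, the gene of the context lists nearest to each marker was found by the Euclidean distance between centred log2 CPM, among 160 genes with a mean of at least 1 CPM. With 4 libraries this distance mostly reads the difference between genotypes. Crabp1 was nearest to Zbtb16 (distance 0.711) and to Sohlh1 (0.785), Dmrta2 to Dmrt1 (0.240), Taf4b to Gfra1 (0.0918) and Tut4 to Id4 (0.0919). The nearest to Lin28a was the Leydig cell gene Hsd3b1 (0.855), to Uchl1 the spermatid gene Catsper1 (0.103), to Sohlh2 the Sertoli gene Defb19 (0.125) and to Sall4 the reference gene Hprt (0.248).

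Transcripts of other testis cells moved with genotype in the same libraries. Beside the counts of calls for each list below stand 22.0% higher and 21.7% lower over all genes tested. Of 12 Leydig cell markers 10 were called higher and 0 lower, and 0 of them were at 0 counts. Their summed level went from 768 and 804 TPM in WT to 2546 and 2626 TPM in KK. Insl3 carried most of that rise, at 611 and 642 TPM in WT and 2314 and 2399 TPM in KK. Ltc4s (3 and 2 against 70 and 60 counts) and Sult1e1 (26 and 31 against 129 and 114 counts) had the largest log2 differences of that list, and Ltc4s entered the test through KK alone. Of 20 Sertoli markers 18 were tested, 3 higher and 6 lower, with summed levels of 303 TPM in each WT library and 415 and 421 TPM in KK. Ptgds carried that rise, as the sum without it was 230.1 and 229.5 TPM in WT and 229.9 and 227.3 TPM in KK. Ptgds, Defb19 and Gata4 (31 and 44 against 76 and 59 counts, edgeR adjusted p of 0.025) were higher, Dhh and Inhbb lower by 1.25 and 1.21 on the log2 scale, and of the defining genes Wt1 (60 and 62 against 34 and 46 counts) was lower (edgeR adjusted p of 0.048) and Sox9 (22 and 24 against 11 and 12 counts) did not pass (0.061). The calls of Gata4 and Dhh were each lost in 6 of 13 alternatives and that of Wt1 in 8. Of 14 peritubular and endothelial markers 10 were tested with 4 higher, Acta2 and Dcn among them, and of 10 macrophage markers 6 were tested with 2 higher, C1qb among them. In the first list Cnn1 (5 and 4 against 36 and 30 counts) was called higher but entered the test through KK alone. So did Csf1r in the second (1 and 1 against 16 and 11 counts). The summed levels were 14.4 and 13.6 TPM in WT and 16.2 and 28.1 TPM in KK for the first list, and 4.32 and 5.62 TPM against 7.28 and 11.2 TPM for the second. For the Leydig, peritubular and macrophage lists edgeR made 0 lower calls, with 0 also at an unadjusted p under 0.05 and in DESeq2, but 2 peritubular genes were lower without KK replicate 1 and 1 without WT replicate 1. The macrophage count of 2 higher went to 1 or 0 in 7 of 13 alternatives. Among early meiotic genes 7 of 19 tested were higher and 5 lower, with Rec8 and Dmc1 higher and Sycp3 and Sycp2 lower. Among 16 pachytene markers 1 was higher (Spag6) and 8 were lower, Mybl1 and Tdrd5 by 0.64 and 0.63 on the log2 scale. Round spermatid genes had 10 higher and 5 lower of 16, Sun5 and Spaca3 being higher and Tssk6 and Smcp lower. Of 12 ubiquitous reference genes 5 were higher, B2m and Hprt the most, and 3 lower, Sdha and Ppia the most. Whether cell makeup differed between the genotypes, and what part it had in the values of the 10 markers, was not tested.

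**Figure D4:**
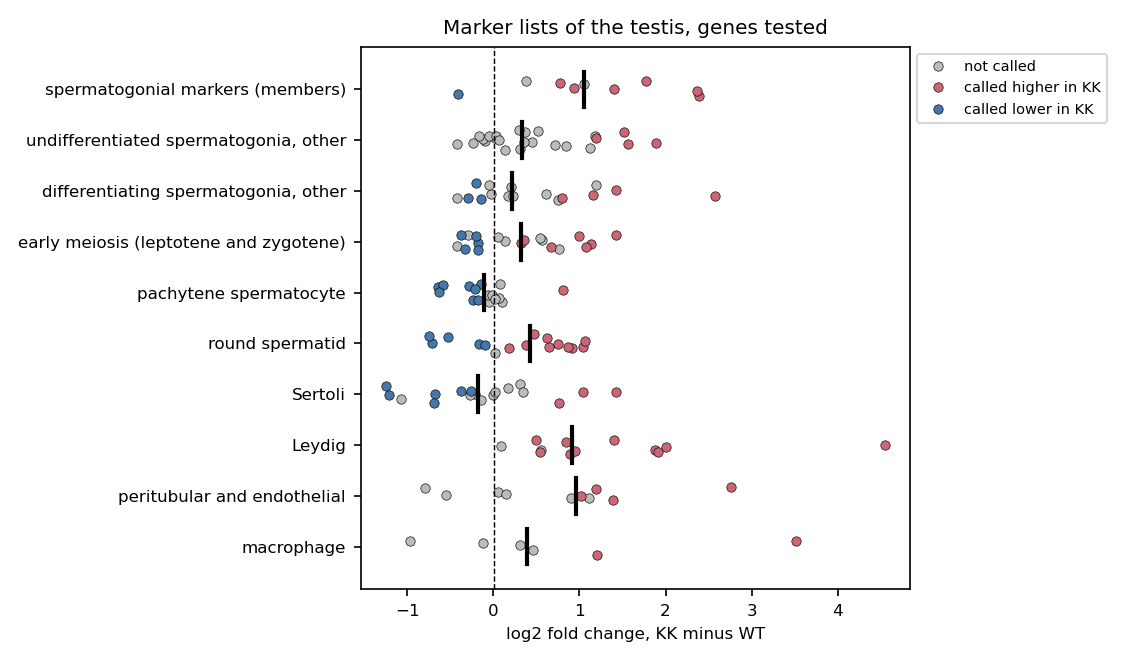
log2 fold change (KK minus WT) of each tested gene in the 10 markers and in 9 lists of testis genes, coloured by edgeR call, with a black bar at each list's median and a dashed line at the median of all genes tested. The members' median of 1.06 lies beside 0.33 for other undifferentiated spermatogonial genes, 0.92 for Leydig markers and -0.11 for pachytene markers.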

How the data were processed

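RNA-seq of 2 WT and 2 KK libraries was analysed from gene and isoform tables, grouped by sample title. Per the submitters' processing notes, Bowtie and the builds mm10 and GRCm38 were used; the quantifier is not given in the sources used here. The gene tables hold 55364 genes with lengths. Isoform shares (IsoPct) are in percent, per the file headers. The expected counts deposited by the authors are estimates, rounded here to whole numbers. TPM was also deposited by the authors; it divides by effective length, so short isoforms weigh heavily. The kit named in the labels' protocols is not stated to mark strand, so reads of overlapping antisense genes cannot be told apart (Id4, Gfra1, Sall4, Lin28a and Uchl1 have such neighbours, with at most 8.69 counts each).

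Genes were tested with edgeR 4.0.16 in R 4.3.3 (TMM factors, default filter, quasi-likelihood fit on genotype, Benjamini-Hochberg over 16571 genes, threshold 0.05), which was tested on simulated counts. Each SE was derived from the log2 fold change and its F statistic. Counting intervals are exact at 95% and cover counting error only. Lists are described by counts and medians, with no set test. Some genes stand in more than 1 list, such as Stra8, Rec8 and Lhx1, so calls in different lists are not separate. The members and lists were chosen with earlier results of these data known. The rule for named genes took the 10 markers, Ddx4, from each list the 2 strongest calls in either direction above a mean of 1 CPM, and partners, targets or paralogues of a marker. Mcam, Pdgfra, Rxra, Rdh10, Aldh1a1, Gata4, Rec8, Taf4b, Foxo1, Kit, Dnmt3a, Sox9, Wt1, Insl3, Cnn1 and Csf1r were named after their values were seen. Alternatives were other scaling factors, DESeq2 1.42.0, limma 3.58.1 on log2(TPM + 1) and log2(TPM + 0.1), other filters, an effective length offset, a replicate block and leaving out each library.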

Additional observations from a re-analysis of the deposited data

How the results depend on the processing

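Over all genes, 3648 were called higher and 3589 lower. DESeq2 called 2405 higher. Limma on TPM called 2275 higher and 1551 lower with a pseudocount of 1, and 2209 and 1549 with 0.1, and edgeR with an effective length offset called 2075 lower. Library size scaling called 4521 higher and 2516 lower, so that 64.2% of calls were higher against 50.4%. Of the 10 markers 6 were called higher in KK, 1 and 2 in limma on TPM with pseudocounts of 1 and 0.1, 3 with an effective length offset, and 4 to 6 with 1 library left out. The count of 1 lower marker held in all 13 alternatives. Uchl1 turned from 0.78 to -0.0897 and -0.0841 in limma on TPM with pseudocounts of 1 and 0.1, and to -0.24 with the offset; the isoform values of WT replicate 2 show the cause. The other undifferentiated spermatogonial genes had 4 called higher, 1 in each limma fit and 2 with the offset, and 0 to 1 called lower with 1 library left out. Zbtb16 and Lin28a had no value with a mean of at least 1 CPM required, and Nanos3 had one only with genes of at least 1 count kept. The GDNF list had 5 called higher with library size scaling, and the Sertoli list 1 to 6 lower over the alternatives against 6. Igf2bp3 turned from -0.16 to 0.242 and 0.247 in the limma fits and to 0.251 with the offset. Of genes that did not pass in the main test, Gfra2 turned to 0.0164, 0.0181 and 0.0152 (both limma fits, offset), Uchl3 to 0.0505 and Lin28b to 0.0359 (library size), Lin28b also to 0.0171, 0.0180 and 0.0443 (both limma fits, offset) and to 0.0685 and 0.0528 (without WT replicate 1 or KK replicate 2), Bcl6b to -0.0228 and -0.0289 (without WT or KK replicate 2) and Kitl to -0.168 (without WT replicate 2). Their other extremes with 1 library left out were -0.185 for Lin28b, 0.060 for Bcl6b and 0.58 for Kitl. The causes of the other changes were not tested. The replicate numbers of the labels gave no sign of pairing, with a correlation of -0.0575 between the replicate deviations of the genotypes across genes; in a fit with the replicate block 6 markers were called higher and 1 lower, and 3675 and 3634 genes in all. Counts below 60 in each library limit Zbtb16, Lin28a, Sall4, Sohlh1 and Nanos3.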
